A study of Mus musculus with 4 samples.

Results

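The 4 libraries of this study were split by their level of Epcam, the gene of an epithelial adhesion protein, and the members of each side were chosen by that measured value. WT 1 and 211F 2, above 400 FPKM, are called Epcam-high, and WT 2 and 211F 1, under 100 FPKM, are called Epcam-low. FPKM counts the fragments on each kilobase of a transcript relative to all mapped fragments of the library. All 4 of 4 libraries have a side, with 2 libraries on each and 1 library of each genotype per side. Values were compared as log2(FPKM + 1) in the 12767 of 50679 genes whose mean was at least 1 FPKM, which are called expressed here. A gene that reached this mean through a single side had to differ, so counts and medians over the expressed members of a list describe them and support nothing further. Because measured Epcam set the sides, every difference between them is given as a description with no test, and epithelial markers are no independent evidence of the split. The values nearest to the 2 limits were 444 FPKM in WT 1 and 449.6 in 211F 2 on the high side, and 77.3 in 211F 1 and 0.893 in WT 2 on the low side. The mean was 447 ± 4.22 FPKM in the Epcam-high and 39.1 ± 54.0 in the Epcam-low libraries (SD, n = 2 each).

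All libraries came from mammary tumour cells of mice that carry PyMT, the polyoma middle T oncogene, which drives mammary tumours. WT cells have the wild-type form of PCNA, the sliding clamp of DNA replication, and 211F cells have the form that the labels call PCNA 211F. Tumours were taken at 10 weeks of age and dissociated, and cells were caught with an antibody to EpCAM, then plated at a density of 100000 in DMEM/F-12 with serum. The labels call the cells a luminal epithelial adenocarcinoma. The promoter behind PyMT, the time in culture, the dose of the 211F allele and the number of animals are not stated in the labels, and the design text calls the 2 libraries of a genotype independent repeats.

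Epithelial cells are held in sheets by adherens junctions, tight junctions and desmosomes, and their keratin filaments are anchored to a laminin-rich basement membrane. In epithelial-mesenchymal transition, repressors of the Zeb, Snail and Twist families switch off junction genes, and cells gain vimentin, N-cadherin, fibronectin and secreted matrix. Carcinoma cells often stop partway and keep keratins beside mesenchymal genes. Mammary tumours of PyMT mice are largely luminal in character and are a common model for this change.

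The marker genes followed the epithelial and mesenchymal names of the sides only in part. In the sentences that follow, the values of WT 1 and 211F 2 come before those of WT 2 and 211F 1, and a difference is the mean of the Epcam-high minus the mean of the Epcam-low libraries in log2(FPKM + 1). Cdh1, which encodes E-cadherin, was at 257 and 202 against 0.533 and 102 FPKM, so 211F 1 lay nearer to the Epcam-high libraries and WT 2 far below. Vim, which encodes vimentin (ENSMUSG00000026728, GRCm38 chromosome 2, 13573927 to 13582826), was at 124 and 1.86 against 1634 and 1856 FPKM, with both Epcam-low libraries far above both Epcam-high ones, which themselves differed widely. The keratin gene Krt8 was at 433 and 582 against 0.828 and 505 FPKM and was as high in 211F 1 as in the Epcam-high libraries. WT 2 thus held hardly any E-cadherin or Krt8 RNA, while 211F 1 held both beside vimentin, and the sides are named here by Epcam alone.

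WT 2 stood apart in other ways. Xist, the RNA of the inactive X chromosome, was at 52.8 and 37.2 against 0.146 and 72.5 FPKM. The Y-linked genes Ddx3y, Eif2s3y, Kdm5d and Uty were at or below 0.169 FPKM in every library. Ptprc, the leukocyte antigen CD45, was at or below 0.0180 FPKM in every library. All these genes were named with their values known. A fragment in 1 kb was worth 0.0166 FPKM in WT 2 and 0.0262 to 0.0303 FPKM in the other libraries, and 3 fragments, the level read here as near 0, were worth 0.0498 to 0.0910 FPKM.

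The split was counted over all expressed genes. A gene was called separated when every Epcam-high library differed from every Epcam-low library by at least 1 log2 unit in the same direction. Of 12767 genes, 991 (7.76%) were separated, 476 higher in the Epcam-high libraries (3.73%) and 515 lower (4.03%). Counts of separated members in every list below are to be read beside these shares. The sides did not overlap in 6183 genes (48.4%). For 2 against 2 libraries in random order, the share without overlap is 0.333. At 2 log2 units, 154 genes were higher and 194 lower, and at 4 log2 units 14 were higher and 27 lower. Genes at 10 FPKM or more in both libraries of a side and at 0.5 or less in both of the other numbered 12 for the Epcam-high and 38 for the Epcam-low side. The median difference over all genes was -0.01.

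Each genotype gave its own comparison of an Epcam-high with an Epcam-low library, and the 2 comparisons share no library. A difference of 1 log2 unit or more was found in 3124 genes (24.5%) for the WT libraries and in 2433 genes (19.1%) for the 211F libraries. Of these, 1283 genes differed in the same direction in both, which is 41.1% of the WT genes and 52.7% of the 211F genes. A further 183 genes differed in opposite directions. Across the 12767 genes, which are not independent and share library depth, Pearson's r between the 2 differences was 0.465. The plot of both differences shows the separated genes in opposite corners, and a band of genes, with the keratins Krt8 and Krt14, that differed in WT and hardly at all in 211F.

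**Figure D1:**
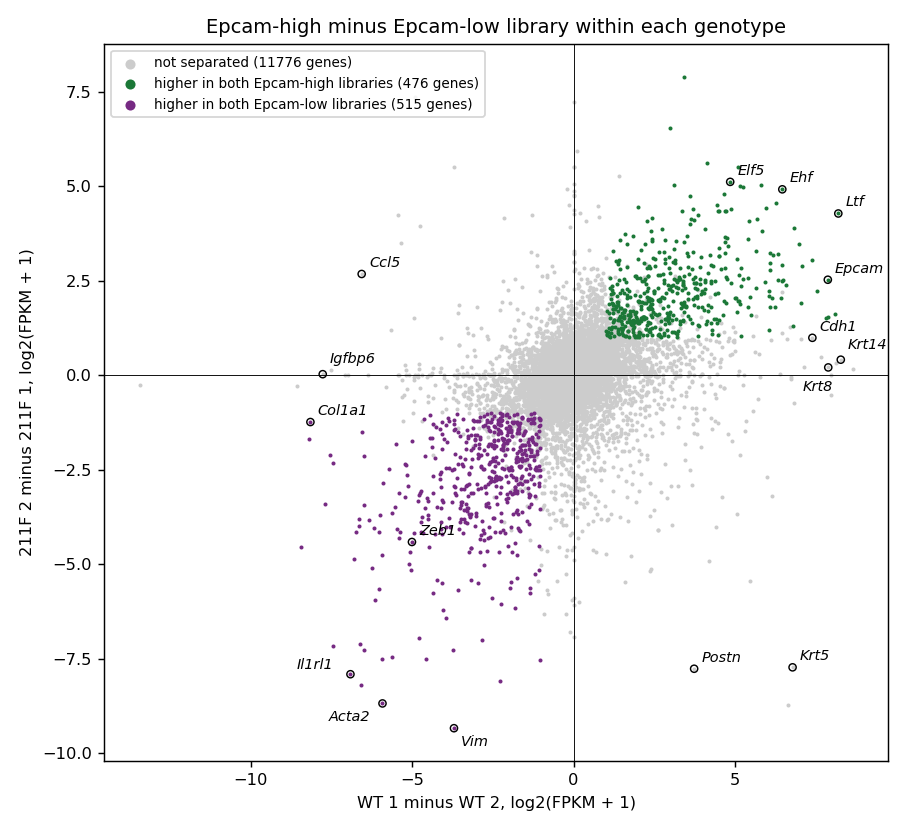
Each point is a expressed gene (12767), placed by its difference between WT 1 and WT 2 (horizontal) and between 211F 2 and 211F 1 (vertical), both in log2(FPKM + 1). The 476 green genes were at least 1 log2 unit higher in both Epcam-high libraries than in either Epcam-low library and the 515 purple genes at least 1 lower. Circled genes are named, and Krt5 and Postn lie in the corner of opposite directions.

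Among the 15 genes of widest gap on the Epcam-high side were 3 epithelial transcription factors, Ehf, Elf5 and Foxq1. Ehf, an ETS factor of epithelia (ENSMUSG00000012350, GRCm38 chromosome 2, 103263433 to 103303278), had the widest gap of these 15, at 237 and 145 against 1.70 and 3.84 FPKM, a difference of 5.69. Elf5, an ETS factor of the luminal progenitors and milk-secreting cells of the breast, was at 32.01 and 45.1 against 0.143 and 0.331 FPKM, and Elf3, of the same family, at 10.98 and 8.54 against 0.252 and 0.576 FPKM. Foxq1, a forkhead factor, was at 30.4 and 74.3 against 0.782 and 0.527 FPKM, higher in 211F 2 than in WT 1. Of 19 expressed members of the list of epithelial transcription and splicing factors, 13 were separated, 13 higher and 0 lower, with a median difference of 2.82 against -0.01 over all genes. At the median member, WT 1 had 27.1 FPKM and 211F 2 had 37.3, against 0.252 in WT 2 and 4.88 in 211F 1. The grainyhead factor gene Grhl2 was at 48.4 and 42.0 against 0.109 and 9.17 FPKM, while the epithelial splicing regulators Esrp1 and Esrp2 were at 110.02 and 102 against 0.262 and 17.4 and at 27.1 and 28.5 against 0.0752 and 6.82 FPKM, and these 3 were named with their values known. In these 3 genes 211F 1 lay between WT 2 and the Epcam-high libraries, while for the 3 ETS factors and Foxq1 it lay next to WT 2. Gata3, the luminal lineage factor, did not follow the split and was at 30.5 and 11.5 against 1.38 and 35.03 FPKM and highest in 211F 1.

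Several of the other genes with the widest gap serve epithelial trafficking, transport and junctions. Ap1m2 encodes the clathrin adaptor subunit that sorts proteins to the basolateral membrane of epithelial cells, and it was at 38.1 and 47.5 against 0.105 and 0.518 FPKM, a difference of 5.07. Slc39a4, a zinc importer, was at 33.4 and 32.7 against 0.366 and 0.209 FPKM. Tjp3, which encodes the tight junction scaffold ZO-3, was at 42.4 and 20.9 against 0.00582 and 0.296 FPKM. Ltf, which encodes lactoferrin, an iron-binding milk protein, was at 379 and 49.0 against 0.293 and 1.58 FPKM, and WT 1 held far more of it than 211F 2. Col4a6, a chain of basement membrane collagen, was at 12.6 and 20.7 against 0.0388 and 0.0306 FPKM, with both Epcam-low libraries near 0. Nkd2, an antagonist of Wnt signalling, was at 166 and 188 against 0.482 and 11.8 FPKM, with 211F 1 above WT 2. The signalling adaptor Fam83a (5.401), Rassf10 (4.51), Hid1 (4.63), the transcription co-regulator Cited4 (4.91), the surface enzyme Bst1 (4.47) and the prolactin family member Prl2c5 (5.19) complete the 15 genes of widest gap, given with their differences. Foxq1, Elf3, Tjp3 and Bst1 overlap a gene on the other strand, Gata3 overlaps genes on both strands, and Prl2c5 has close paralogs, so their levels are uncertain. The paired plot of the 15 genes on each side shows the gaps library by library.

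**Figure D2:**
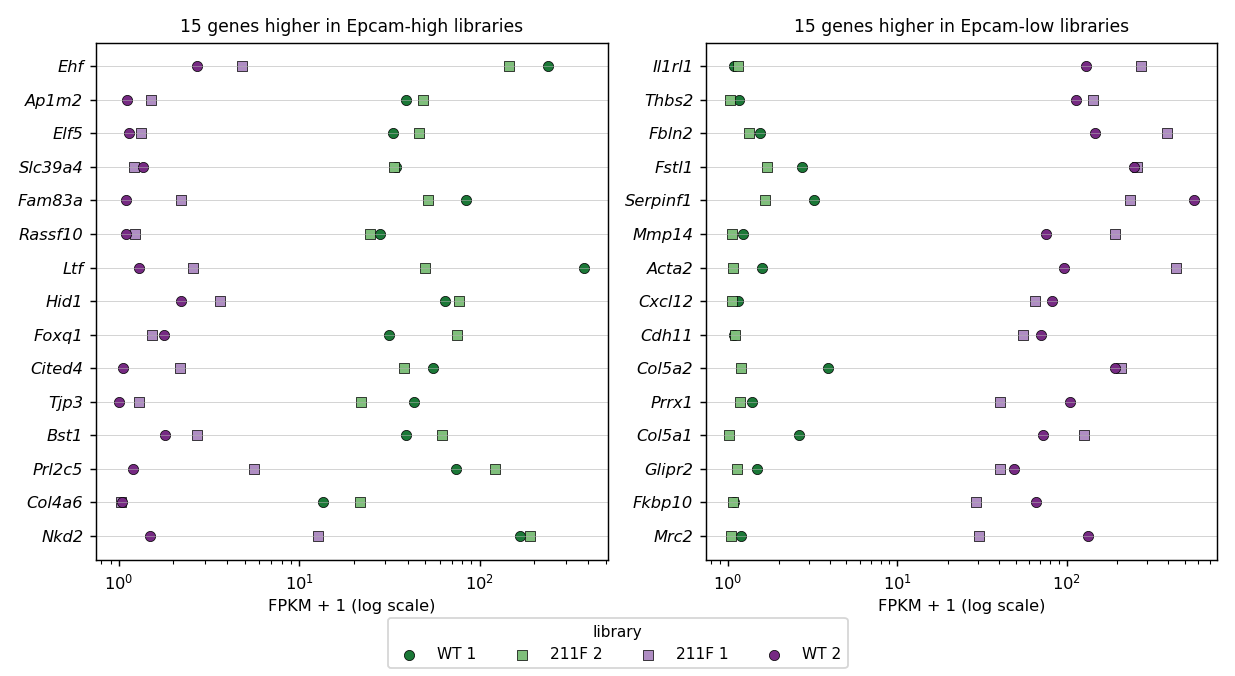
Levels in FPKM + 1 on a log axis of the 15 genes with the widest gap in each direction, 1 point per library. Green points are the Epcam-high libraries WT 1 and 211F 2, and purple points the Epcam-low libraries WT 2 and 211F 1. For Ehf the Epcam-high libraries are at 237 and 145 FPKM, and for Il1rl1 the Epcam-low libraries are at 129 and 275 FPKM.

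The promoter windows of 3 of these Epcam-high genes are printed with that of Vim, because the E-box CACCTG is the site that the Zeb and Snail repressors are known to bind. Each window runs from 250 bases before to 50 bases after a RefSeq start on GRCm38.p6, which can differ from the GENCODE start, 5′ to 3′ on the gene's strand. Capitals mark CACCTG on either strand, that is CACCTG or CAGGTG.
Epcam, chr17:87635729-87636028, plus strand: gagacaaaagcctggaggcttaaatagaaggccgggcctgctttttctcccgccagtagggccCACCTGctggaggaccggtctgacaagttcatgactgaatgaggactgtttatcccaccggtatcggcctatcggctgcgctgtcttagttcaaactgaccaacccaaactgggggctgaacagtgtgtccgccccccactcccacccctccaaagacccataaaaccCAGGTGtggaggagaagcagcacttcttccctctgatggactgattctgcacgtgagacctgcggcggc
Ap1m2, chr9:21312284-21312583, minus strand: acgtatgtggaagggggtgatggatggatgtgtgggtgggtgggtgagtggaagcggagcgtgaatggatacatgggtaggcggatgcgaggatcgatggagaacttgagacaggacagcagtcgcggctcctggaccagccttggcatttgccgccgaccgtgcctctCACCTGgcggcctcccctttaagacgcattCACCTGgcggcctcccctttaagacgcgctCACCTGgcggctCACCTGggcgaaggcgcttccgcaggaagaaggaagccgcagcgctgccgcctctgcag
Elf5, chr2:103411848-103412147, plus strand: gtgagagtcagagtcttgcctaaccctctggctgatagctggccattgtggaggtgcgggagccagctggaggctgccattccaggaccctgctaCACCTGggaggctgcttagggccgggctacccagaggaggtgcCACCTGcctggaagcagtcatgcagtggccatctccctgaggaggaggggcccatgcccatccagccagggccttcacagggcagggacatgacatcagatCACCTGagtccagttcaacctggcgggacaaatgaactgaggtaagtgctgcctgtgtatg
Vim, chr2:13574061-13574360, plus strand: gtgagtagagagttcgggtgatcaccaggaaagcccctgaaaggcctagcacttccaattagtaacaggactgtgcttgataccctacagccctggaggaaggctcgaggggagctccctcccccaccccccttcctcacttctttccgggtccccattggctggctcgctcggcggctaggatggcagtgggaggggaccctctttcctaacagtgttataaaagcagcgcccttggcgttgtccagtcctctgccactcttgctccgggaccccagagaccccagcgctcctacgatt
The motif stood 2 times in the window of Epcam, 4 times in that of Ap1m2, 3 times in that of Elf5 and 0 times in that of Vim. These windows were picked to show the motif and do not stand for their sides. Of the 15 genes of widest gap on the Epcam-high side 8 had a window, and 4 of these held it (Ap1m2, Elf5, Ltf and Tjp3) while Cited4, Col4a6, Nkd2 and Prl2c5 did not. On the Epcam-low side 11 of 15 had a window, and 0 held it. Of all 32851 windows of 300 bases, 20.2% held it. Windows were at hand for 697 of the 991 separated genes (70.3%), too few to compare its share between the sides, so that comparison is void, and these counts are a description alone. A match is a run of letters and not a bound site, and its absence says nothing beyond this window.

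Junction and polarity genes were higher in the Epcam-high libraries, with a positive difference in 34 of 34. Of these 34 members, all expressed, 24 were separated, 24 higher and 0 lower, with a median difference of 3.69. The median level was 44.6 FPKM in WT 1, 60.7 in 211F 2, 0.225 in WT 2 and 13.4 in 211F 1. Cldn7, a claudin of tight junctions, was at 60.1 and 85.1 against 0.0703 and 5.07 FPKM, and Marveld3, a tight junction membrane protein, at 26.6 and 19.6 against 0.223 and 1.32 FPKM. The desmosome genes Dsp and Dsg2, chosen after their values were seen, were at 141 and 99.6 against 0.276 and 39.9 and at 95.6 and 108 against 0.103 and 13.5 FPKM. Here WT 2 was at 0.276 FPKM or less and 211F 1 was in between. Cdh1 missed the limit of 1 log2 unit narrowly, since 211F 2 exceeded 211F 1 by 0.99. The claudin genes Cldn4 and Cldn1 went another way, at 45.0 and 31.8 against 0.137 and 74.9 and at 17.8 and 12.3 against 0.355 and 28.5 FPKM, with 211F 1 above both Epcam-high libraries. Epcam set the sides and is itself a member of this list.

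Most expressed keratins were low in WT 2. Of 11 expressed keratins 2 were separated, Krt7 and Krt6a, both higher in the Epcam-high libraries, as were 3.73% of all genes. The median difference was 4.05, and it was 7.66 between WT 1 and WT 2 and 0.20 between 211F 2 and 211F 1. Krt18, the partner of Krt8 in simple epithelia, was at 327 and 250.2 against 0.623 and 178 FPKM, and Krt7, of simple epithelia too, at 387 and 358 against 0.719 and 124 FPKM. Krt14, a basal keratin, was at 1058 and 1722 against 2.41 and 1297 FPKM and Krt17, of basal and stressed epithelia, at 493 and 475 against 0.764 and 381 FPKM. WT 2 held each of these 4 at 2.41 FPKM or less, while 211F 1 held Krt14 within the range of the Epcam-high libraries and the other 3 below it. Other members went another way, and of those chosen after their values were seen Krt19, of simple epithelia, was at 113 and 0.0489 against 0.0692 and 0.0834 and Krt15, a basal keratin, at 11.04 and 0.137 against 0.0319 and 0.159 FPKM, both high in WT 1 alone. Krt7 and Krt8 overlap a gene on the other strand, as does Krt6a, which also has close paralogs.

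Basement membrane genes lay in both directions. Of 22 expressed members of the laminin, hemidesmosome and basement membrane list, 3 were higher, 2 were lower and 17 were not separated, with a median difference of 0.15. Lamb3, a chain of the laminin that anchors hemidesmosomes, was at 178 and 158 against 0.365 and 41.2 FPKM and Lama5, a chain of epithelial laminins, at 51.0 and 58.6 against 14.4 and 19.2 FPKM. The nidogens, which link laminin to collagen IV, lay the other way, with Nid1 at 0.0185 and 0.00490 against 43.8 and 16.04 and Nid2 at 0.0173 and 0.00613 against 16.4 and 10.4 FPKM, near 0 in both Epcam-high libraries. Both nidogen genes overlap a gene on the other strand.

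Among the transcription factors linked to epithelial-mesenchymal transition, 10 of 18 expressed were separated lower in the Epcam-high libraries (4.03% of all genes) and 1 higher (3.73%). Their median difference was -1.52. The median level was 4.69 and 4.02 FPKM in WT 1 and 211F 2, against 26.4 and 26.2 in WT 2 and 211F 1. Members still differed between the Epcam-low libraries: of genes named with their values known, Hmga2, a chromatin protein, was at 6.24 and 7.34 against 18.9 and 119.8 FPKM and Prrx2, a paralog of Prrx1, at 1.43 and 0.0686 against 74.2 and 18.3 FPKM. Zeb1, a repressor of E-cadherin, was at 0.657 and 0.996 against 52.3 and 41.6 FPKM, and its paralog Zeb2 at 1.71 and 1.48 against 26.1 and 25.3 FPKM. Twist2, a basic helix-loop-helix factor, was at 0.505 and 0 against 16.1 and 12.9 FPKM, and Prrx1, a homeobox factor of mesenchyme, at 0.396 and 0.182 against 104 and 39.6 FPKM. In these 4 genes every Epcam-high value was below 2 FPKM and every Epcam-low value at least 12.9 FPKM. Snai1 was also separated, at 4.85 and 6.06 against 26.7 and 15.4 FPKM, while its paralog Snai2 was not, at 31.1 and 17.2 against 27.3 and 27.0 FPKM, and both were named with their values known. On the other side Sox9, a factor of mammary progenitors likewise named afterwards, was separated at 100.1 and 96.9 against 4.24 and 36.8 FPKM. Zeb1, Zeb2 and Twist2 overlap a gene on the other strand.

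The widest gap of all on the Epcam-low side was in Il1rl1, the receptor of interleukin 33 (ENSMUSG00000026069, GRCm38 chromosome 1, 40429570 to 40465415), at 0.0823 and 0.142 against 129 and 275 FPKM, a difference of -7.41. Both Epcam-high libraries were close to the level of 3 fragments in 1 kb. Fstl1, a secreted glycoprotein of mesenchyme, was at 1.76 and 0.694 against 248 and 259 FPKM, and Serpinf1, which encodes the anti-angiogenic PEDF, at 2.21 and 0.662 against 567 and 236 FPKM. Cdh11, a cadherin of mesenchymal cells, was at 0.0843 and 0.105 against 69.8 and 54.4 FPKM. Cxcl12, the ligand of the chemokine receptor CXCR4, was at 0.1495 and 0.0612 against 81.2 and 64.3 FPKM. In each of these 5 genes, as in the other 10 of widest gap on this side, every Epcam-low value was at least 28.1 FPKM and every Epcam-high value at most 2.91 FPKM.

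Mesenchymal adhesion genes, secreted matrix and contractile genes were among the lists whose separated members were all lower in the Epcam-high libraries. Of 20 expressed members of the mesenchymal cytoskeleton and adhesion list, 9 were lower in the Epcam-high libraries (4.03% of all genes) and 0 higher (3.73%). Their median difference was -2.46. Emp3, a membrane protein, was at 3.28 and 2.80 against 112 and 66.9 FPKM. N-cadherin (Cdh2) and fibronectin (Fn1), chosen after their values were seen, were at 4.34 and 0.661 against 30.0 and 98.0 and at 129 and 26.6 against 622 and 1851 FPKM, highest in 211F 1. The actin bundler Fscn1, also chosen afterwards, was at 454 and 321 against 366 and 493 FPKM with overlapping sides.

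Of 29 expressed collagens, matrix proteins and crosslinkers, 16 were lower in the Epcam-high libraries (4.03% of all genes) and 0 higher (3.73%). Their median difference was -3.61. The median level was 2.65 and 0.251 FPKM in WT 1 and 211F 2, against 64.3 and 39.8 in WT 2 and 211F 1. Thbs2, a matrix thrombospondin, was at 0.160 and 0.0301 against 113 and 142 FPKM and Fbln2, a fibulin of elastic fibres, at 0.540 and 0.338 against 147 and 392 FPKM. The collagen V chains Col5a1 and Col5a2, which start collagen fibrils, were at 1.62 and 0.0174 against 71.3 and 126 and at 2.91 and 0.196 against 193 and 208 FPKM. The collagen I genes differed far more between the Epcam-low libraries, and Col1a1 was separated while Col1a2 was not. Col1a2 was at 0.0945 and 0.0557 against 416 and 0.286 FPKM and Col1a1 at 0.542 and 0.566 against 437 and 2.70 FPKM, so that WT 2 alone held high levels. Fkbp10, a chaperone of collagen folding, was at 0.0917 and 0.0728 against 65.4 and 28.1 FPKM, and Mrc2, a receptor that takes up collagen, at 0.199 and 0.0443 against 133 and 29.6 FPKM. Col5a1 and Fkbp10 overlap a gene on the other strand.

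The expressed fibroblast markers other than Thy1 were highest in WT 2. Of 15 such markers 8 were expressed, and 3 of these were lower in the Epcam-high libraries and 0 higher, with a median difference of -3.01. Their summed level was 195 and 184 FPKM in WT 1 and 211F 2, against 1383 and 291 in WT 2 and 211F 1, and Gsn, which other cells express too, made up 165, 177, 253 and 233 FPKM of these sums. Markers at 1 FPKM or more numbered 5, 2, 9 and 7 in the same order. Col3a1, the collagen III gene, was at 0.336 and 0.0579 against 118 and 3.63 FPKM, with WT 2 far above 211F 1, and overlaps a microRNA gene. Of genes chosen after their values were seen, the receptor gene Pdgfra was at 6.78 and 4.89 against 76.6 and 9.15 FPKM, highest in WT 2 like the collagen I genes of the same list described with the matrix. Fbln1 and Thy1, chosen likewise, had overlapping sides. Fbln1 was at 18.3 and 0.198 against 51.9 and 12.2 FPKM and Thy1 at 1.70 and 0.629 against 1.67 and 10.7 FPKM. Others that define fibroblasts were at lower levels. Dcn reached 3.72 FPKM in WT 2 and at most 0.0965 elsewhere, Fap at most 0.460, Dpt at most 0.229 and Lum at most 0.0222 FPKM. The part of fibroblasts in the matrix differences was not tested, and in bulk RNA fewer cells of a type and less RNA per cell cannot be told apart.

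Of 16 expressed smooth muscle contractile genes 7 were lower in the Epcam-high libraries (4.03% of all genes) and 0 higher (3.73%). Their median difference was -1.92. Acta2, smooth muscle actin, was at 0.600 and 0.0739 against 95.8 and 442 FPKM, Myl9, a myosin light chain, at 0.322 and 0.1504 against 30.3 and 208 FPKM and Cnn1, calponin, at 0.0812 and 0.127 against 6.79 and 145 FPKM. These genes peaked in 211F 1 rather than WT 2, and both Epcam-high libraries were below 1 FPKM. Tagln, which encodes the actin-binding protein SM22, was at 0.0778 and 0.420 against 5.83 and 27.0 FPKM and overlaps genes on the other strand. The same order held for Fhl1, a LIM protein of muscle, at 3.05 and 0.554 against 18.5 and 424 FPKM.

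Matrix proteases and their inhibitors were lower in the Epcam-high libraries in 7 of 21 expressed genes (4.03% of all genes) and higher in 1 (3.73%). Their median difference was -1.39. Mmp14, a membrane-bound metalloprotease that activates MMP2, was at 0.223 and 0.0580 against 74.6 and 192 FPKM. Timp1, an inhibitor of these proteases, was at 22.6 and 69.4 against 402 and 416 FPKM, and Serpinb2, an inhibitor of plasminogen activation, at 1.32 and 1.37 against 11.5 and 41.5 FPKM. Mmp14, Timp1 and Serpinb2 thus lay on the same side, which does not hold for the whole list. The member higher in the Epcam-high libraries, named with its values known, was Serpinb5, at 87.4 and 87.9 against 0.325 and 37.6 FPKM. Plau, the urokinase that activates plasminogen, was at 15.8 and 12.05 against 5.94 and 48.3 FPKM with overlapping sides. Serpinb2 overlaps another gene.

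Growth factor genes were lower in the Epcam-high libraries in 11 of 24 expressed (4.03% of all genes) and higher in 0 (3.73%). Their median difference was -1.97. Fgf7, a fibroblast growth factor that acts on epithelia, was at 0.424 and 0.2504 against 263 and 4.45 FPKM, Hgf, the ligand of Met, at 0.124 and 0.115 against 4.33 and 6.38 FPKM and Nrg1, a ligand of ErbB3, at 3.75 and 6.92 against 24.3 and 59.7 FPKM. Vegfa, the angiogenic factor, was at 48.3 and 18.5 against 160.3 and 144 FPKM. Of 25 expressed receptor tyrosine kinases 1 was higher and 5 were lower, with a median difference of -0.27. Erbb3, the receptor of neuregulins, was at 26.7 and 24.1 against 0.0753 and 2.53 FPKM and was the member higher in the Epcam-high libraries, so that Nrg1 and Erbb3 lay on opposite sides. Ror2, a receptor of Wnt5a, was at 0.00766 and 0 against 16.5 and 13.9 FPKM, Ddr2, a collagen receptor, at 0.139 and 0.0427 against 114 and 15.6 FPKM and Pdgfrb, a PDGF receptor, at 2.64 and 0 against 23.9 and 19.5 FPKM. Hgf, Nrg1 and Ddr2 overlap another gene.

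Signalling lists of TGF-beta, Wnt and Notch were mixed. Shares over all genes were 3.73% higher and 4.03% lower. Of 28 expressed TGF-beta and BMP genes 2 were higher and 3 lower, with a median difference of -0.02. Ltbp1, which stores latent TGF-beta in the matrix, was at 12.1 and 16.4 against 82.0 and 128 FPKM, and Id2, a BMP target and inhibitor of basic helix-loop-helix factors, at 83.6 and 81.8 against 16.5 and 18.6 FPKM. In Id2 the libraries of each side were nearly equal. Of 27 expressed Wnt pathway genes 5 were higher and 2 lower, with Wnt5b, a Wnt ligand, at 45.3 and 32.5 against 3.31 and 1.92 FPKM, Wnt10a at 16.1 and 47.9 against 0.0139 and 2.38 FPKM and Dkk3, a secreted member of the Dickkopf family, at 0.599 and 0.183 against 67.5 and 9.32 FPKM. The list's median difference was 0.22. Of 14 expressed Notch pathway genes 4 were higher and 0 lower, with a median difference of 1.40. The ligand genes Jag2 and Dll1 were at 51.1 and 57.9 against 0.244 and 3.89 and at 27.4 and 17.3 against 0.595 and 4.06 FPKM, and the fringe genes Rfng and Lfng, whose enzymes add sugars to Notch, at 41.6 and 79.9 against 15.3 and 9.10 and at 36.3 and 46.0 against 14.8 and 11.96 FPKM. Dll1 overlaps a gene on the other strand.

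Among semaphorins, plexins and axon guidance genes 4 of 28 expressed were higher (3.73% of all genes) and 4 lower (4.03%). Their median difference was 0.29. Sema3a, a repulsive guidance ligand, and Nrp1, its receptor, were on the Epcam-low side, at 0.326 and 0 against 21.1 and 44.3 and at 3.89 and 0.314 against 18.2 and 64.8 FPKM. Sema4a and Plxnb1, the receptor of another semaphorin, were on the Epcam-high side, at 12.2 and 7.31 against 0.467 and 0.646 and at 31.5 and 28.1 against 2.13 and 5.10 FPKM. Ligand and receptor genes were thus split over the sides without a common direction. Nrp1, Sema4a and Plxnb1 overlap another gene.

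Interferon-stimulated genes leaned to the Epcam-low libraries. Of 36 expressed, 7 were lower in the Epcam-high libraries (4.03% of all genes) and 0 higher (3.73%). Their median difference was -0.53. The guanosine triphosphatases of cell-autonomous defence Iigp1, Irgm1 and Gbp2 were at 0.666 and 0.251 against 7.90 and 10.8, at 13.9 and 14.5 against 51.6 and 119.7 and at 7.78 and 13.6 against 40.3 and 40.9 FPKM, in each case with both Epcam-low libraries higher. The other 29 were not separated. Of 16 expressed genes of MHC class I presentation 2 were lower and 0 higher, the immunoproteasome subunits Psmb8, at 6.89 and 0.400 against 129 and 104 FPKM, and Psmb10, at 9.71 and 7.23 against 22.8 and 28.1 FPKM, with a median difference of -0.47 in the list. B2m, the light chain of MHC class I, was at 445 and 473 against 1302 and 811 FPKM, not separated but without overlap. Iigp1, Irgm1 and Gbp2 have close paralogs, and Gbp2 and Psmb8 overlap a gene on the other strand.

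Chemokines and cytokines were higher in 2 (3.73% of all genes) and lower in 3 (4.03%) of 28 expressed genes. Their median difference was -1.05. Tnf was at 3.90 and 5.35 against 0 and 0.0399 FPKM and Csf3, the granulocyte growth factor, at 15.98 and 64.4 against 1.52 and 3.45 FPKM, and these 2 were higher in the Epcam-high libraries. Ccl7, a monocyte chemokine, was at 0.182 and 0.0508 against 342 and 2.36 FPKM, and Ccl2, a close relative, at 1.86 and 6.68 against 527 and 6.05 FPKM, so that both were high in WT 2 alone.

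Lists of mammary lineage and differentiation did not move as a block. Shares over all genes were 3.73% higher and 4.03% lower. Of 18 expressed luminal markers 5 were higher in the Epcam-high libraries and 0 lower, with a median difference of 2.65. Wfdc2, a secreted protein of luminal cells, was at 190.01 and 261 against 0.507 and 22.8 FPKM, and Lcn2, the iron-binding protein lipocalin 2, at 1609 and 570.5 against 184 and 16.4 FPKM, with 211F 1 lowest. Of 15 expressed basal and myoepithelial markers 3 were higher and 5 lower, and the list's median difference was 0.82 between the WT libraries and -2.28 between the 211F libraries. Sparc, a matrix protein of this list, was at 71.3 and 3.32 against 959 and 664 FPKM. The contractile members Acta2 and Cnn1 were lower in the Epcam-high libraries, while the Notch ligand Jag2 was higher. Squamous and keratinocyte genes were higher in 5 and lower in 0 of 17 expressed, with a median difference of 2.44, among them Krtdap at 36.8 and 271 against 0 and 7.61 FPKM and the epidermal crosslinking enzyme Tgm1 at 4.52 and 24.2 against 0.0185 and 0.412 FPKM, both highest in 211F 2. Tgm1 overlaps a gene on the other strand.

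None of 9 expressed milk protein and secretory genes was separated (median difference 0.64). The casein gene Csn1s1 was at 458 and 0.195 against 0.143 and 0.0753 FPKM and thus high in WT 1 alone. Of 17 expressed stem and progenitor surface markers 0 were higher and 2 lower, with a median difference of -0.50. Procr, a receptor that marks mammary stem cells, was at 3.06 and 3.26 against 21.0 and 19.6 FPKM and Abcg2, a drug efflux pump, at 4.33 and 2.31 against 36.3 and 55.3 FPKM. Kit, a receptor of luminal progenitors, was at 17.6 and 0.694 against 0.0687 and 0.0540 FPKM, above 1 FPKM in WT 1 alone. Epithelial channels and transporters were higher in 4 and lower in 2 of 19 expressed, with a median difference of 1.09. Aqp5, a water channel of secretory epithelia, was at 28.0 and 25.3 against 0.517 and 3.86 FPKM and Aqp1, a water channel of red cells and endothelium, at 0.457 and 0.0358 against 9.53 and 4.49 FPKM, on opposite sides.

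The separated homeobox cluster genes and imprinted genes were all lower in the Epcam-high libraries, a direction that held 4.03% of all expressed genes. Of 38 listed homeobox cluster genes 1 and 1 reached 1 FPKM in WT 1 and 211F 2, against 21 in WT 2 and 14 in 211F 1. Of the 16 expressed, most of which reached the mean of 1 FPKM through the Epcam-low libraries, 2 were lower and 0 higher, and Hoxa3 and Hoxc9, which pattern the body axis, were at 0.539 and 0.0462 against 3.85 and 2.91 and at 0 and 0 against 4.04 and 1.46 FPKM. The clusters differed between the Epcam-low libraries. Among members chosen after their values were seen, Hoxa9 and Hoxc10 were at 0 and 0 against 29.6 and 0.0914 and at 0.0317 and 0 against 27.8 and 0.0439 FPKM, high in WT 2 alone, and Hoxb2 was at 0.0190 and 0 against 0.0555 and 23.9 FPKM, high in 211F 1 alone. Of 12 expressed imprinted genes 3 were lower and 0 higher, while by sign 4 had a positive and 8 a negative difference (median -0.45). The neighbours Peg10 and Sgce, which share an imprinted promoter region, were at 0.0167 and 0.0135 against 10.4 and 10.0 and at 0.0480 and 0 against 22.6 and 9.11 FPKM, near 0 in both Epcam-high libraries. Igf2, a fetal growth factor, was at 0.139 and 0.344 against 1.88 and 66.2 FPKM, with 211F 1 far above WT 2. Hoxa3 and Igf2 overlap other genes.

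Lists of growth, housekeeping and lipid synthesis held no separated gene, while those of glycolysis, glutathione and stress held some. Over all genes, 3.73% were separated higher and 4.03% lower. None of 42 expressed DNA replication genes, 32 of G2 and mitosis, 23 cyclins and CDK inhibitors, 34 ribosomal protein genes, 24 housekeeping genes or 28 of cholesterol and fatty acid synthesis was separated. Their median differences were -0.03, -0.11, -0.08, 0.39, 0.05 and 0.39. Pcna itself was at 155 and 119 against 147 and 173 FPKM, beside the proliferation marker Mki67 at 177 and 140.2 against 105 and 94.98 FPKM. Cdkn2a, which encodes the cell cycle inhibitors p16 and p19Arf, was at 27.0 and 68.8 against 101 and 116 FPKM, without overlap but within 1 log2 unit in at least 1 pair of libraries. Of 31 expressed glycolysis and hypoxia genes 3 were lower and 0 higher (median -0.08), with the hypoxia-induced peptide gene Adm at 0.776 and 0.0248 against 10.9 and 7.02 FPKM. Of 28 expressed genes of glutathione and iron handling 2 were higher and 2 lower (median -0.01). Here Gsta4, a glutathione transferase, was at 268 and 238 against 19.1 and 38.4 FPKM and Nqo1, a quinone reductase, at 0.722 and 0.130 against 14.4 and 26.0 FPKM. Of 26 expressed dissociation stress and immediate early genes 0 were higher and 2 lower (median -0.02), the AP-1 gene Fosl1 at 1.67 and 14.2 against 57.7 and 47.2 FPKM and the phosphatase gene Dusp1 at 1.505 and 3.57 against 50.7 and 10.3 FPKM. Fosl1 and Dusp1 overlap a gene on the other strand. In the plot of separated members by list, the junction list and the epithelial factors stand highest on the Epcam-high side and the transition factors and matrix genes on the Epcam-low side.

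**Figure D3:**
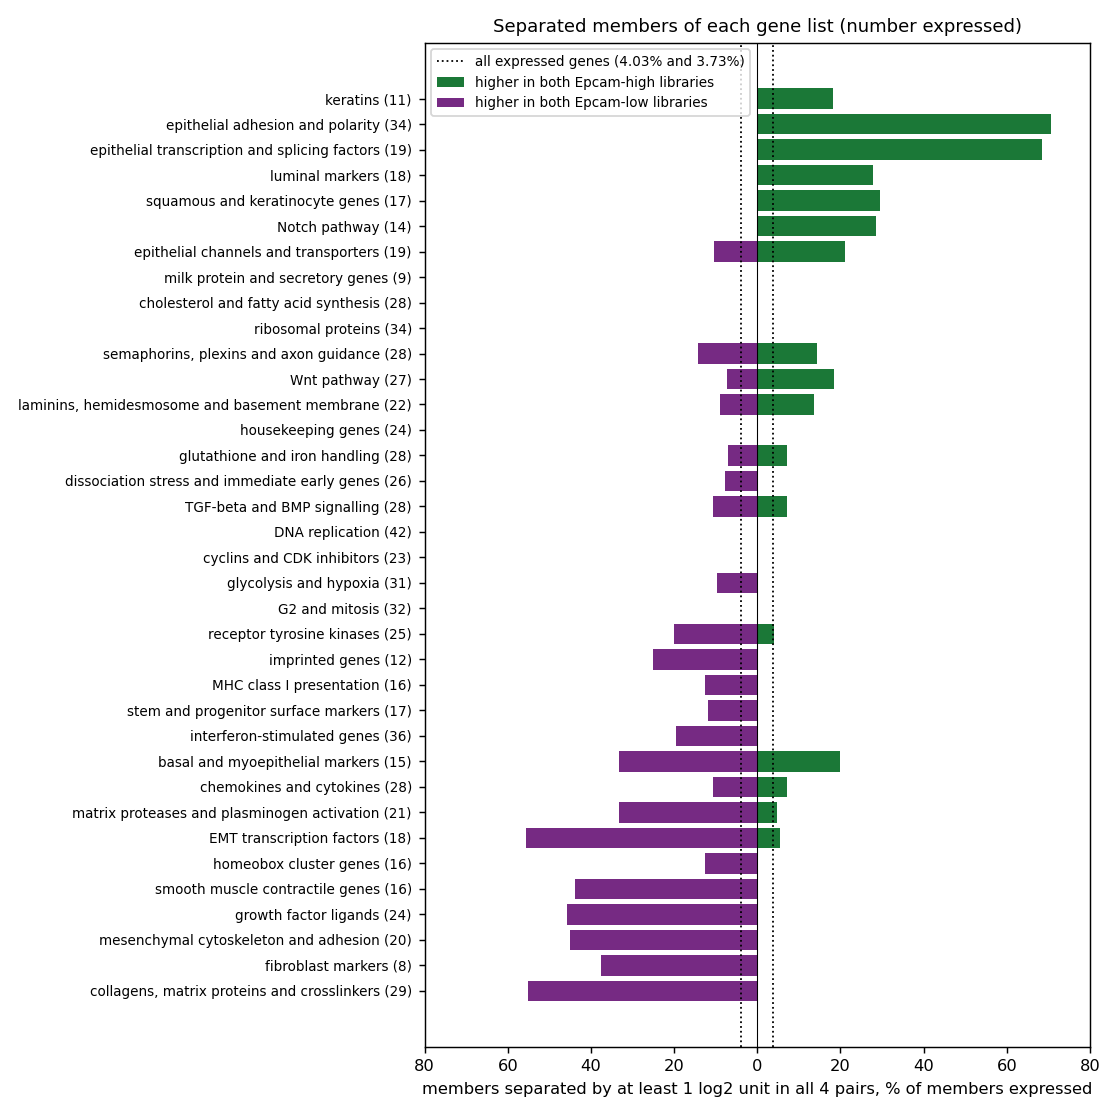
Share of the expressed members of each list that were separated by at least 1 log2 unit in all 4 pairs of libraries, in % of members expressed, to the right where higher and to the left where lower in the Epcam-high libraries. Numbers after the names give the members expressed, and dotted lines mark the shares over all genes, 3.73% higher and 4.03% lower. Lists are ordered by median difference, and those with fewer than 5 expressed members and 1 other are not drawn.

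Markers of other cell types were mostly near 0. None of 16 lymphoid markers reached a mean of 1 FPKM. Of 15 endothelial markers 3 were expressed and 1 was lower, Flt1, a VEGF receptor, at 5.50 and 0.399 against 20.7 and 15.5 FPKM, while Pecam1, chosen after its values were seen, was at 1.75 and 0.295 against 0.116 and 0.149 FPKM. Of 18 macrophage and myeloid markers 4 were expressed and 2 were higher, S100a8 and S100a9, which keratinocytes also express, at 13.5 and 2.42 against 0 and 0.667 and at 1.95 and 2.20 against 0 and 0 FPKM. Pericyte markers (3 of 9 expressed), adipocyte markers (1 of 10), Schwann and neural markers (4 of 8) and skeletal muscle markers (2 of 8) held 0, 0, 1 and 0 genes higher and 0, 1, 0 and 0 genes lower. The adipocyte member was Lpl, a lipase, at 1.81 and 0.103 against 9.66 and 27.3 FPKM, while the neural one was Mbp, myelin basic protein, at 24.6 and 23.1 against 10.6 and 9.40 FPKM. Adipoq, which defines adipocytes, was listed at 0 in every library.

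The Epcam-low libraries were not alike, and 211F 1 lay at different places for different groups. Its position was measured in genes where both Epcam-high libraries differed from WT 2 in the same direction by at least 2 log2 units, as 0 at the level of WT 2 and 1 at the mean of the Epcam-high libraries. Of 497 genes lower in WT 2, 105 had a position under 0.25, 244 between 0.25 and 0.75 and 148 over 0.75, with a median of 0.57. Of 542 genes higher in WT 2, 157 were under 0.25, 219 between and 166 over 0.75, with a median of 0.49. Positions thus filled the whole range in both directions.

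By list, 211F 1 was near the Epcam-high libraries for keratins (median position 0.96, 7 of 7 genes over 0.75), although the other 4 of 11 expressed keratins did not meet the condition and have no position. Luminal markers were spread (0.85, 9 of 18 expressed genes, 6 over 0.75 and 2 under 0.25), and the rest have no position. Krt8 and Krt18 are in both lists, and of luminal markers with a position Elf5 and Ltf lay next to WT 2. Without a position, Lcn2 was lowest in 211F 1. Krt19 and Kit, likewise without, were at 0.0834 and 0.0540 FPKM in 211F 1 against 0.0692 and 0.0687 FPKM in WT 2. Junction genes (0.60, 33 genes) and epithelial factors (0.58, 15 genes) were in between, with 6 of the 15 factors under 0.25. For the factors of epithelial-mesenchymal transition 211F 1 was near WT 2 (0.07, 6 genes, 5 of them under 0.25), as for the mesenchymal cytoskeleton and adhesion genes (-0.02, 10 genes, 9 under 0.25). Collagens and matrix genes spread over the range (0.38, 17 genes, 7 under 0.25 and 4 over 0.75). Fibroblast markers had a median of 0.83 (5 genes, 3 over 0.75), with Col3a1 at 0.71 and Pdgfrb, a growth factor receptor of mesenchyme, next to WT 2 at 0.08. Homeobox genes had a median of 0.92 (8 genes, 6 over 0.75).

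**Figure D4:**
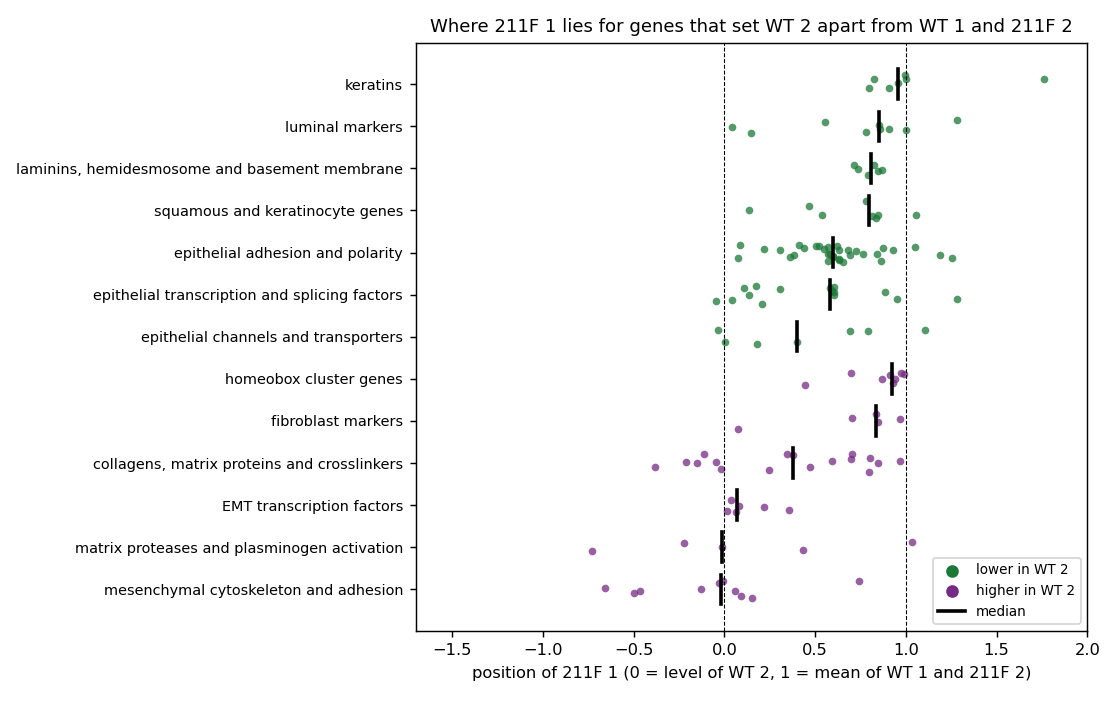
Position of 211F 1 in each list, with 0 at the level of WT 2 and 1 at the mean of WT 1 and 211F 2, for genes at least 2 log2 units from WT 2 in both Epcam-high libraries. Each point is a gene, green where WT 2 was lower and purple where it was higher, and black bars are medians. The medians are 0.96 for the 7 keratins and 0.07 for the 6 transition factors.

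Single genes show both ends. The stress and cell cycle gene Sfn, which encodes the epithelial 14-3-3 sigma, was at 128 and 227 against 0.528 and 221 FPKM (position 1.06), and the desmosome genes Perp and Pkp1 were at 334 and 224 against 1.36 and 193 and at 126 and 70.4 against 0.108 and 117 FPKM (0.93 and 1.05). These epithelial genes were at 1.36 FPKM or less in WT 2 and near the Epcam-high level in 211F 1. Igfbp6, a binding protein of insulin-like growth factors, was at 0.119 and 0.131 against 243 and 0.111 FPKM, present in WT 2 alone. The endoglin gene Eng, a TGF-beta co-receptor of endothelium and mesenchyme, was at 0.336 and 0.521 against 52.5 and 0.665 FPKM and overlaps a gene on the other strand.

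Some genes ran against the split, with differences of at least 1 log2 unit in opposite directions in the genotypes. Of the 183, 132 were higher in WT 1 and 211F 1 and 51 in WT 2 and 211F 2. Krt5, the basal keratin that pairs with Krt14, was at 245 and 3.84 against 1.23 and 1029 FPKM, so that 211F 1 was highest, WT 1 next and the other libraries at most at 3.84 FPKM. Postn, a matrix protein of remodelling tissue, was at 39.5 and 0.0821 against 2.04 and 235 FPKM and Mgp, an inhibitor of calcification, at 289 and 0.378 against 14.96 and 40.7 FPKM. Aldh1a3, an enzyme of retinoic acid synthesis, was at 4.40 and 1.51 against 0.0446 and 32.5 FPKM, and Mcam, an adhesion molecule, at 12.7 and 9.25 against 1.12 and 86.2 FPKM. Of those highest in WT 2, Ccl5, a chemokine of T cells and monocytes, was at 0.998 and 56.6 against 188 and 8.01 FPKM. Krt5 and Mcam overlap a gene on the other strand.

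Position on the chromosomes, which the choice of sides did not use, showed small shifts. Chromosome 15 had the lowest median difference, -0.29 over 497 genes, with -0.51 between the WT libraries and -0.09 between the 211F libraries. Chromosome 7 had the highest, 0.21 over 965 genes, with 0.23 and 0.17 in the genotypes. The medians of all other chromosomes lay between these values.

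The genotypes themselves were compared with limma, which asked which transcripts differ between WT and 211F cells. Each side holds both genotypes, so the choice of sides does not set the difference between them. The split does enter the spread, since the libraries of a genotype lie on opposite sides. A lack of calls therefore does not show that the genotypes are alike. No gene passed (0 of 12767, 0%), and the smallest adjusted p was 0.9999, with 241 genes (1.89%) at an unadjusted p under 0.05, 114 higher and 127 lower in 211F. Among the named genes the smallest unadjusted limma p (0.0209) was that of Krt16, a keratin of stressed epidermis, at 63.4 and 20.03 FPKM in the 211F libraries against 4.59 and 0.0349 FPKM in the WT libraries, or 3.94 ± 1.07 higher in log2(FPKM + 1) (SE, limma adjusted p = 0.9999). Epcam differed by 2.70 ± 2.92 and Vim by -2.64 ± 3.55 (SE, 211F minus WT, limma adjusted p = 0.9999 for both), which is less than their spread between libraries. With 2 libraries a group, the smallest two-sided p of an exact permutation test is 0.333.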

How the data were processed

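RNA from 4 libraries was analysed, 2 labelled WT and 2 labelled 211F. The authors deposited a single table of FPKM values without read counts. Per the submitters' processing notes, TopHat2 2.0.13, DESeq2 and GRCm38 were used, in roles that the notes do not give. How FPKM was computed, on which annotation and with what use of strand, the sources used here do not say, although the labels' protocols name a strand-specific kit, so genes that overlap can share reads. FPKM also divides by the library total, so a few very abundant genes lower the rest.

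Identifiers matched a symbol for 50369 genes and not for 310 (23 of them expressed), and positions are those of GENCODE M21. Values were analysed as log2(FPKM + 1), which understates differences of low genes, for genes whose mean reached 1 FPKM (Python 3.11.15, pandas 2.3.3). Genotypes were compared with limma 3.58.1 in R 4.3.3, with an intensity trend, two-sided, with Benjamini-Hochberg adjustment at 0.05. Since separate animals are not stated, p-values here cover the spread among these libraries alone, which may be technical. Low values fell on whole steps of a fragment, within 0.1, for 82.7% to 87.9% of values in 1971 genes with a single transcript of at least 3000 bp. If libraries were not rescaled, depth relative to WT 1 was 1.72 for WT 2, 1.09 for 211F 1 and 0.942 for 211F 2.

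The rule for named genes took Epcam, Cdh1, Vim and Pcna, the 15 genes of widest gap in each direction (leaving out predicted, clone, small RNA, ribosomal and pseudogene symbols), up to 4 members of widest gap per list, up to 2 per list of opposite direction, and up to 10 at each end of the position of 211F 1. It named 202 genes, of which 119 were separated. Overlapping genes were looked up for these alone. Results for 1 list and some single genes are not reported here. The members, the 44 gene lists (1026 genes, 815 expressed, 81 separated higher and 107 lower) and this rule were chosen with earlier results of these data known. Promoter windows are RefSeq's. The separation count, the positions and limma were checked on simulated data. The recovery required there was set at a smaller spread than that of these libraries. It thus checks the computation and not how many real differences would be found. Alternatives were other pseudocounts (0.1 and 5), filters (none and 5 FPKM) and scalings (quantile and median), a limit of 2 log2 units, blocks, and each library left out.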

Additional observations from a re-analysis of the deposited data

Results flagged for a closer look

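In 9 of the named genes, WT 1 minus WT 2 and 211F 2 minus 211F 1 differed by at least 2 log2 units in opposite directions, so that the Epcam-high library of one genotype was higher and that of the other lower. The difference between the genotypes was not tested, since each has 1 library on a side. The values are in log2(FPKM + 1), WT before 211F. Krt5, a basal keratin, had 6.78 and -7.73, and Postn, a matrix protein, 3.74 and -7.77. Mgp, an inhibitor of calcification, had 4.19 and -4.92, and Scd1, a fatty acid desaturase, 2.40 and -5.14. Aldh1a3, an aldehyde dehydrogenase, had 2.37 and -3.74, Hey1, a Notch target, 3.66 and -2.90, Nt5e, which encodes the surface enzyme CD73, 2.38 and -2.86, and Mcam, an adhesion molecule, 2.70 and -3.09. These 8 genes were higher in WT 1 and 211F 1. Ccl5, a chemokine, had -6.56 and 2.68 and was higher in WT 2 and 211F 2.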

How the results depend on the processing

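The count of separated genes, 991 (476 higher, 515 lower), depended on how separation was counted. It was 1306 (618 and 688) with a pseudocount of 0.1 FPKM and 529 (275 and 254) with a pseudocount of 5 FPKM. A filter at a mean of 5 FPKM gave 708 (358 and 350), and a limit of 2 log2 units gave 348 (154 and 194). Within WT alone 3124 genes passed 1 log2 unit (1575 and 1549) and within 211F alone 2433 (1115 and 1318). With each library left out, so that fewer pairs had to agree, it was 1574 to 2232 (693 to 1087 higher, 752 to 1145 lower), lowest without WT 2 and highest without 211F 1, and 1672 without WT 1 and 1606 without 211F 2. Lists with a median difference of at least 1 in size numbered 18, and 11 with no filter on low values. With a pseudocount of 0.1 FPKM they numbered 20, and with a pseudocount of 5 FPKM 12.

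limma called 0 genes between the genotypes in every alternative. Genes at an unadjusted p under 0.05 numbered 241, and 745 with no filter, which tests more genes. Leaving out each library gave 221 to 836, highest without WT 1, where the lone library of a genotype is assumed to vary like the others. With the replicate number as a block there were 142. The labels do not say that numbers pair libraries, and same-numbered libraries deviated in opposite directions (r = 0.465 between WT 1 minus WT 2 and 211F 2 minus 211F 1). The crossed pairing as a block, which is the split by Epcam, gave 0 calls and 520 genes at an unadjusted p under 0.05. Levels near 3 fragments in 1 kb, 0.0498 to 0.0910 FPKM, cannot be told from 0.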

Other observations

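Some of the genes present on a side alone, at 10 FPKM or more in both of its libraries and at 0.5 or less in both of the others, belong to groups not yet described. They were chosen after their values were seen, and the Epcam-high values come before the Epcam-low ones. On the Epcam-high side were Barx2, a homeobox gene, at 26.7 and 13.9 against 0.0357 and 0.198 FPKM, Adora1, an adenosine receptor gene, at 11.7 and 27.8 against 0.237 and 0.426 FPKM, and Pglyrp1, which encodes a bactericidal protein, at 13.9 and 269 against 0.397 and 0.130 FPKM. On the Epcam-low side were genes of collagen and elastic fibre assembly, with the prolyl hydroxylase subunit P4ha3 at 0.313 and 0.0798 against 31.2 and 11.3 FPKM, the elastic fibre protein Emilin1 at 0.0888 and 0.211 against 69.7 and 20.7 FPKM and the small proteoglycan Ogn at 0.0463 and 0.0619 against 93.9 and 10.5 FPKM. The lysyl oxidase gene Lox, whose enzyme crosslinks collagen, was at 0.159 and 0.0677 against 399 and 24.1 FPKM, with WT 2 far above 211F 1. Also on that side were Bcat1, an enzyme of branched-chain amino acid breakdown, at 0.467 and 0 against 49.6 and 31.0 FPKM, Cyba, a subunit of NADPH oxidase, at 0.101 and 0 against 20.7 and 17.3 FPKM, and the interferon-induced guanosine triphosphatase genes Ifi47 and Tgtp2, which have close paralogs, at 0.425 and 0.196 against 19.5 and 15.3 and at 0.137 and 0.194 against 20.5 and 49.8 FPKM.

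X-linked genes that commonly escape X inactivation were read beside Xist. Eif2s3x was at 134 and 120.3 against 77.1 and 199 FPKM, Kdm5c at 46.2 and 42.4 against 27.0 and 46.2 FPKM and Kdm6a at 12.5 and 10.5 against 6.93 and 11.2 FPKM, each lowest in WT 2. Ddx3x was at 269 and 291 against 272 and 406 FPKM and was not lowest there.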
